A study of Mus musculus with 3 samples.

Results

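The chemokine family was described here across the cell types of the postnatal mouse lung. Members were all rows of the deposited gene lists whose symbol is that of a CC, CXC, XC or CX3C chemokine, of one of their receptors, or of an atypical chemokine receptor. The rule used names only and no measured value. It took 66 of 28692 rows, which carry 60 distinct symbols. There were 44 ligand rows, 18 receptor rows and 4 atypical receptor rows. UMIs (unique molecular identifiers, each counted as 1 captured RNA molecule) were found for 56 rows, and 10 ligand rows had 0 UMIs in every cell. These 10 rows are *Ccl26*, *Ccl27b*, the rows of *Ccl21b* and *Ccl21c*, and second or further rows of *Ccl19*, *Ccl21a* and *Ccl27a*. The *Ccl19*, *Ccl21* and *Ccl27* rows belong to near-identical gene copies, between which reads can be split or lost, so their values are uncertain.

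Chemokines are small secreted proteins that guide leukocytes along concentration gradients, and most bind sulfated sugars on cell surfaces. Their receptors are G protein-coupled receptors that signal mainly through the inhibitory G protein family. Atypical receptors bind the same ligands without this signal and take them up, so they shape gradients. In the lung, resident macrophages, epithelium and endothelium can all release chemokines, and neutrophils, lymphocytes and dendritic cells (DCs) follow them.

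Single-cell RNA-Seq (scRNA-Seq) was done on dissociated whole lungs of 3 wild-type C57BL/6 pups, called mice 2, 3 and 4 after their labels. All pups were kept in room air (RA) from postnatal day 1 to 14 and taken at P14. There was 1 condition and no treated group, so every comparison below is between cell types of the same 3 mice. Each library is 1 animal, and the sums of its cells are the replicates.

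The 3 libraries held 3034, 3135 and 3475 cells with 22476491 to 25192427 UMIs, and 7642 of 9644 cells passed the filter. The median depth of kept cells was 4853 to 7119 UMIs. There were 12 cell barcodes found in more than 1 library, 8 of them among kept cells. Clusters built without the family members gave 24 named cell types, and each name used here stands for cells like that type. The clusters fell into 962 endothelial, 1306 epithelial, 1496 stromal and 3013 immune cells, with 865 cells left unnamed. Of 146 pairs of a marker gene and its type, none with a family member, 144 were over 2-fold higher in the type they mark. The same markers named the clusters, so this count is not a separate check of the names. A level is given as CPM, the UMIs of a gene per 1000000 UMIs of a cell type in 1 mouse. It was not corrected for gene length, so levels are compared between cell types and not between genes. Types were ranked where at least 2 mice had 10 or more cells. This left out lymphatic endothelial cells (ECs; 23 cells), classical monocytes (17 cells) and interstitial macrophages (18 cells), whose values are given as such.

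The family took 189804 UMIs in kept cells, 0.285% of all UMIs there. Ligands had 173299 UMIs, receptors 13328 and atypical receptors 3177. By UMIs, *Cxcl15* alone made up 60.9% of the family. A level of 20 CPM or more in a ranked type was reached by 45 members: 26 ligands, 16 receptors and 3 atypical receptors. Of the 26 ligands, 16 were highest in an immune type, 6 in a stromal type, 2 in an EC type and 2 in an epithelial type. All 16 receptors were highest in an immune type, and all 3 atypical receptors in an EC type. The highest type was the same in all 3 mice for 25 of the 45. A type with under 10 cells in a mouse was left out there. Basophils or mast cells had 6 cells in mouse 2, so the 5 members highest in them could not be among the 25. Highest types were not counted over all genes. These counts thus describe the members and do not set them apart from other genes.

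**Figure D1:**
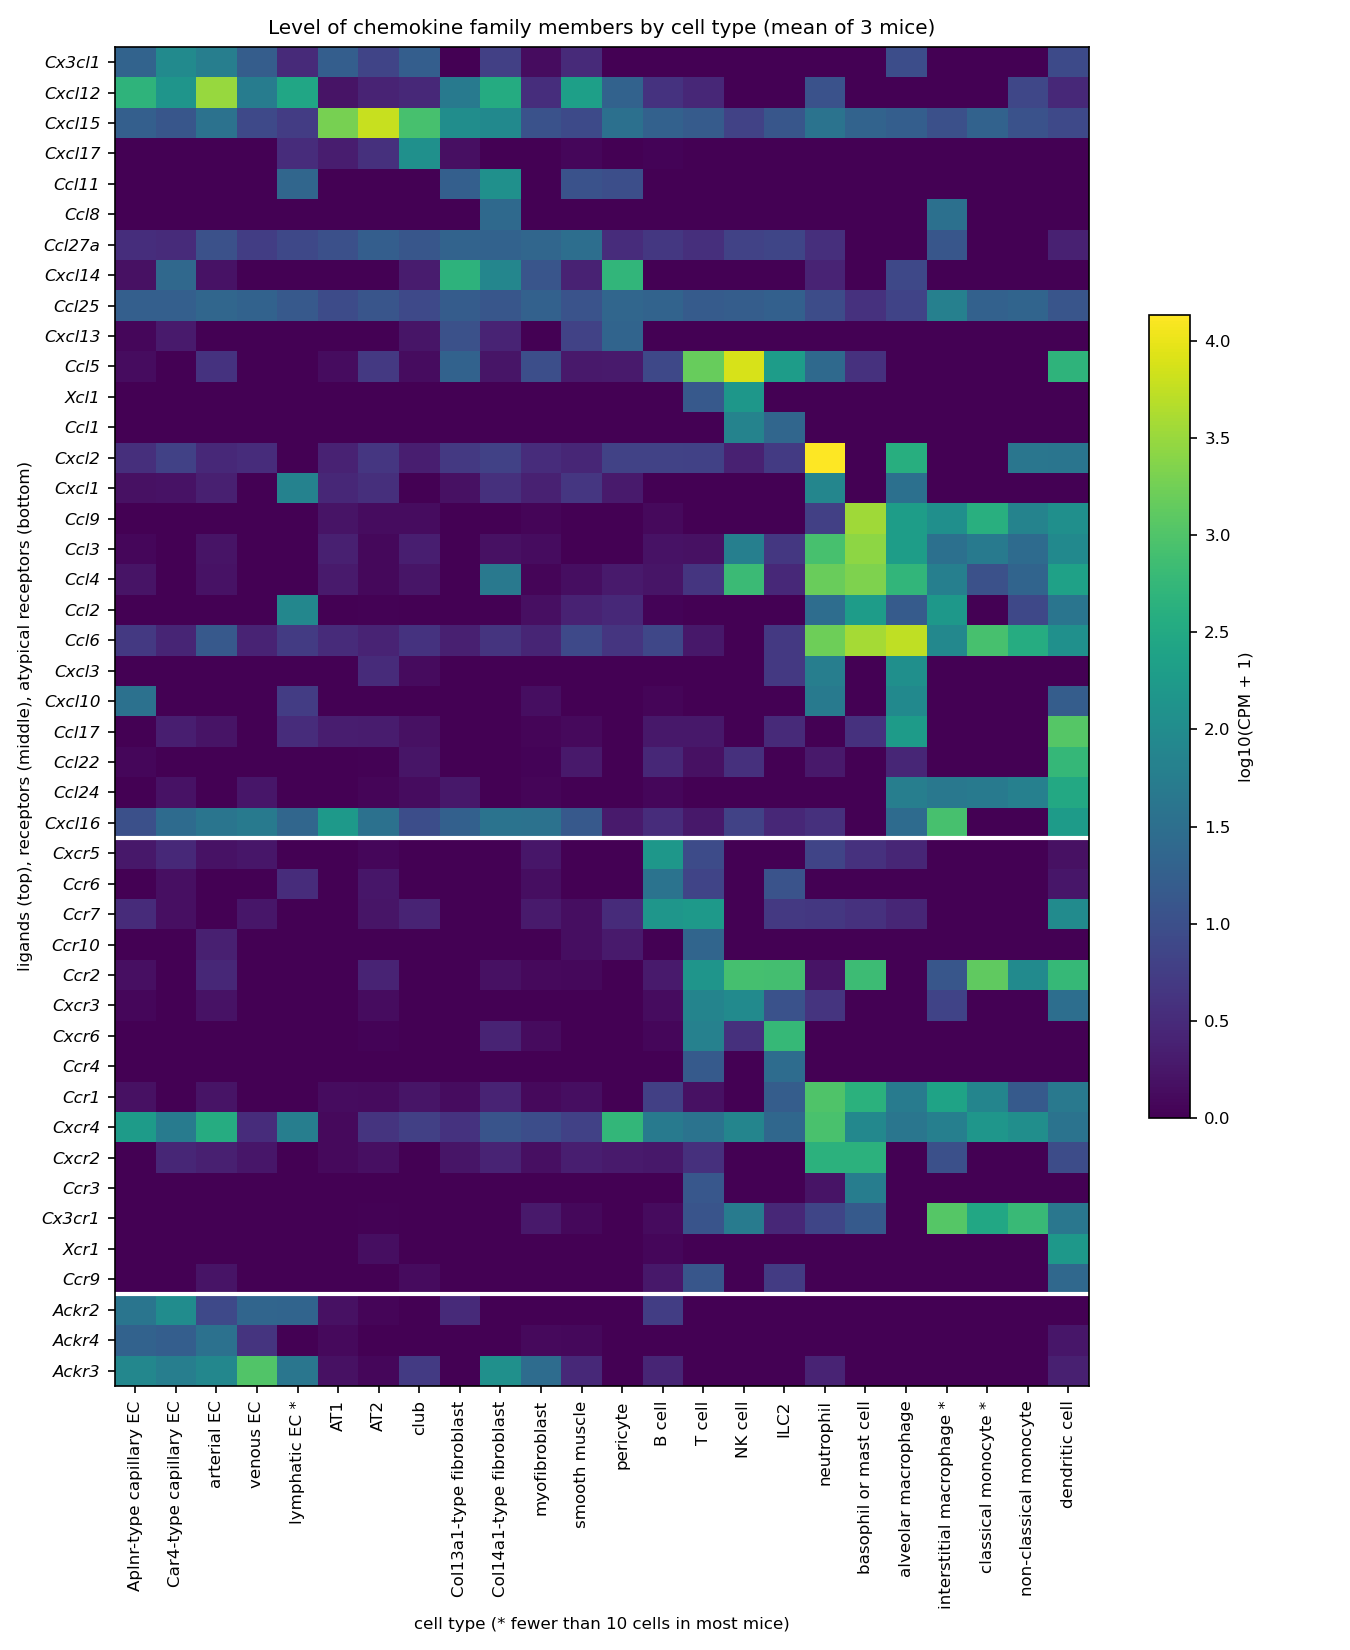
Mean level over the 3 mice, as log10(CPM + 1), of 44 of the family members that reached 20 CPM (rows; ligands on top, then receptors, then atypical receptors) in 24 cell types (columns; stars mark types with fewer than 10 cells in most mice). The receptor rows are brightest in immune columns, the 3 atypical receptors are brightest in EC columns, and ligands are spread over all classes.

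Sequence is shown first for 5 CXC ligands on chromosome 5, 4 of them in 1 gene cluster, because neighbours in that cluster had different sources. *Cxcl1*, *Cxcl2* and *Cxcl3*, ligands of the neutrophil receptor *Cxcr2*, lie beside the epithelial ligand *Cxcl15* (also called lungkine), and *Cxcl10*, an interferon-induced ligand of *Cxcr3*, lies outside this cluster, further along the chromosome. The lines give the 120 bases before the RefSeq start of each gene (GRCm38.p6, the build of the deposited counts), 5′ to 3′ on the strand of the gene. Capitals mark matches to the kappaB consensus, the 10-base motif of NF-kappaB factors, and to TATAAA.
Cxcl1, chr5:90891125-90891244, plus strand: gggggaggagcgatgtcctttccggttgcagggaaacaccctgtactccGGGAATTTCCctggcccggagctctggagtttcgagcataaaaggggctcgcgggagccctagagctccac
Cxcl2, chr5:90903779-90903898, plus strand: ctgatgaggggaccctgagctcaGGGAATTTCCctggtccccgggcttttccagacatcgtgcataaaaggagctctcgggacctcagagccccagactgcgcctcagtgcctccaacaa
Cxcl3, chr5:90785981-90786100, plus strand: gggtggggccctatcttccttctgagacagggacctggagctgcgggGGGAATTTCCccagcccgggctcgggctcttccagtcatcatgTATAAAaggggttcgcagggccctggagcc
Cxcl15, chr5:90794414-90794533, plus strand: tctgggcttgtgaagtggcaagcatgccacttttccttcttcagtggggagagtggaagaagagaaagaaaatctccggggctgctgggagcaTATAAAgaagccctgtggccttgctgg
Cxcl10, chr5:92348890-92349009, minus strand: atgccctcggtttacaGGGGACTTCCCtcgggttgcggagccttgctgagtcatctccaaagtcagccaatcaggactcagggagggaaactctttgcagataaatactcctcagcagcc

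The same 10 letters, GGGAATTTCC, stood before *Cxcl1*, *Cxcl2* and *Cxcl3*. They began 71, 97 and 73 bases before the RefSeq start. The start in the GENCODE annotation differed from it by 4, 28 and 2 bases, so the spacing depends on the start chosen. For *Cxcl2* the last 28 printed bases lie within the GENCODE gene. The longer run of capitals before *Cxcl10* is 2 overlapping kappaB matches. The window of *Cxcl15* held TATAAA 27 bases before the start and no kappaB match. Both strands of the 250 bases before the start were searched. The kappaB consensus was found in 5.0% of 32851 such windows of all genes and in 10 of 52 windows of the family, which belong to 45 of the 60 symbols. TATAAA was found in 12.4% of all windows and in 14 family windows. A match describes letters and does not show that a factor binds there.

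Each cell class was compared with the mean of the other 3 classes to ask where the family is made. Here and between immune types, this mean was taken on the log scale. Groups near 0 pull it down, so a call of higher does not mean above each of the others. Immune cells had the largest share. Of 42 members with enough UMIs to test, 29 were higher in immune cells and 7 were lower, where 37.6% of all 14211 genes tested were called higher and 38.3% lower (edgeR quasi-likelihood test on sums per mouse, Benjamini-Hochberg adjusted p under 0.05). The median log2 fold change of the 42 members was 6.35 in that comparison, against -0.05 over all genes. Members near 0 outside immune cells could have enough UMIs to test through immune cells alone. This can raise both the median and the share of higher calls, and counts near 0 shape the size of such fold changes. With no filter on low counts, 35 of 56 members were higher in immune cells and 7 were lower. The shares over all genes in that fit are not given here, so this count alone is no result about the family. With the filter, endothelial cells had 7 members higher and 15 lower, beside 29.7% and 30% of all genes. Epithelial cells had 6 higher and 15 lower, beside 34.5% and 36.5%. Stromal cells had 7 higher and 15 lower, beside 36.1% and 30.7%. The member medians in these 3 classes were -2.15, -2.29 and -2.25. As each class was set against the mean of the other 3, a high level in immune cells alone lowers the values of the rest. These medians and lower calls are thus not separate from the immune result.

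The 12 members with the largest increase in immune cells were the ligands *Ccl9*, *Ccl3*, *Cxcl2*, *Ccl22*, *Ccl17*, *Xcl1* and *Ccl4* and the receptors *Xcr1*, *Cxcr6*, *Ccr2*, *Cx3cr1* and *Ccr1*, with log2 fold changes of 9.69 down to 7.94. The 7 members lower in immune cells were the ligands *Cxcl12*, *Cxcl13*, *Cxcl14*, *Cxcl15*, *Cx3cl1* and *Ccl27a* and the scavenger *Ackr3*. The calls of *Cxcl13* and *Cxcl14* there were lost without mouse 2 and without mouse 4. The members lower in the other classes were mostly leukocyte genes, which in part follows from this way of comparing. In endothelial cells those with the largest decrease included *Ccl9*, *Cxcr6*, *Ccl5*, *Ccl3*, *Ccr1*, *Cxcl15*, *Cxcl2*, *Ccr2*, *Ccr6*, *Cxcr2* and *Ccr7*, with log2 fold changes of -5.78 to -2.05. In epithelial cells they included *Ccl2*, *Cxcl14*, *Cxcl12*, *Cxcr4*, *Ackr3*, *Cxcr5*, *Ackr2*, *Ackr4*, *Ccl6*, *Cxcl2*, *Cxcr2* and *Ccr7* (-5.05 to -2.36), a list that also holds endothelial and stromal members. In stromal cells they included *Cxcr3*, *Ccr2*, *Ccr9*, *Ccl3*, *Ackr2*, *Ccr6*, *Cxcl2*, *Ccr7*, *Cx3cl1*, *Cxcr5* and *Ccr1* (-5.41 to -2.45). Leaving out 1 mouse or another, 6, 8 and 8 of the 15 lower calls were lost in these 3 classes (8 lower calls were made in epithelial cells without mouse 3), and with the mouse as a block *Ccr9* was no longer called in stromal cells. Among single cell types, all 42 members tested differed in level somewhere among the types, as did 97.6% of 12688 genes tested.

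**Figure D2:**
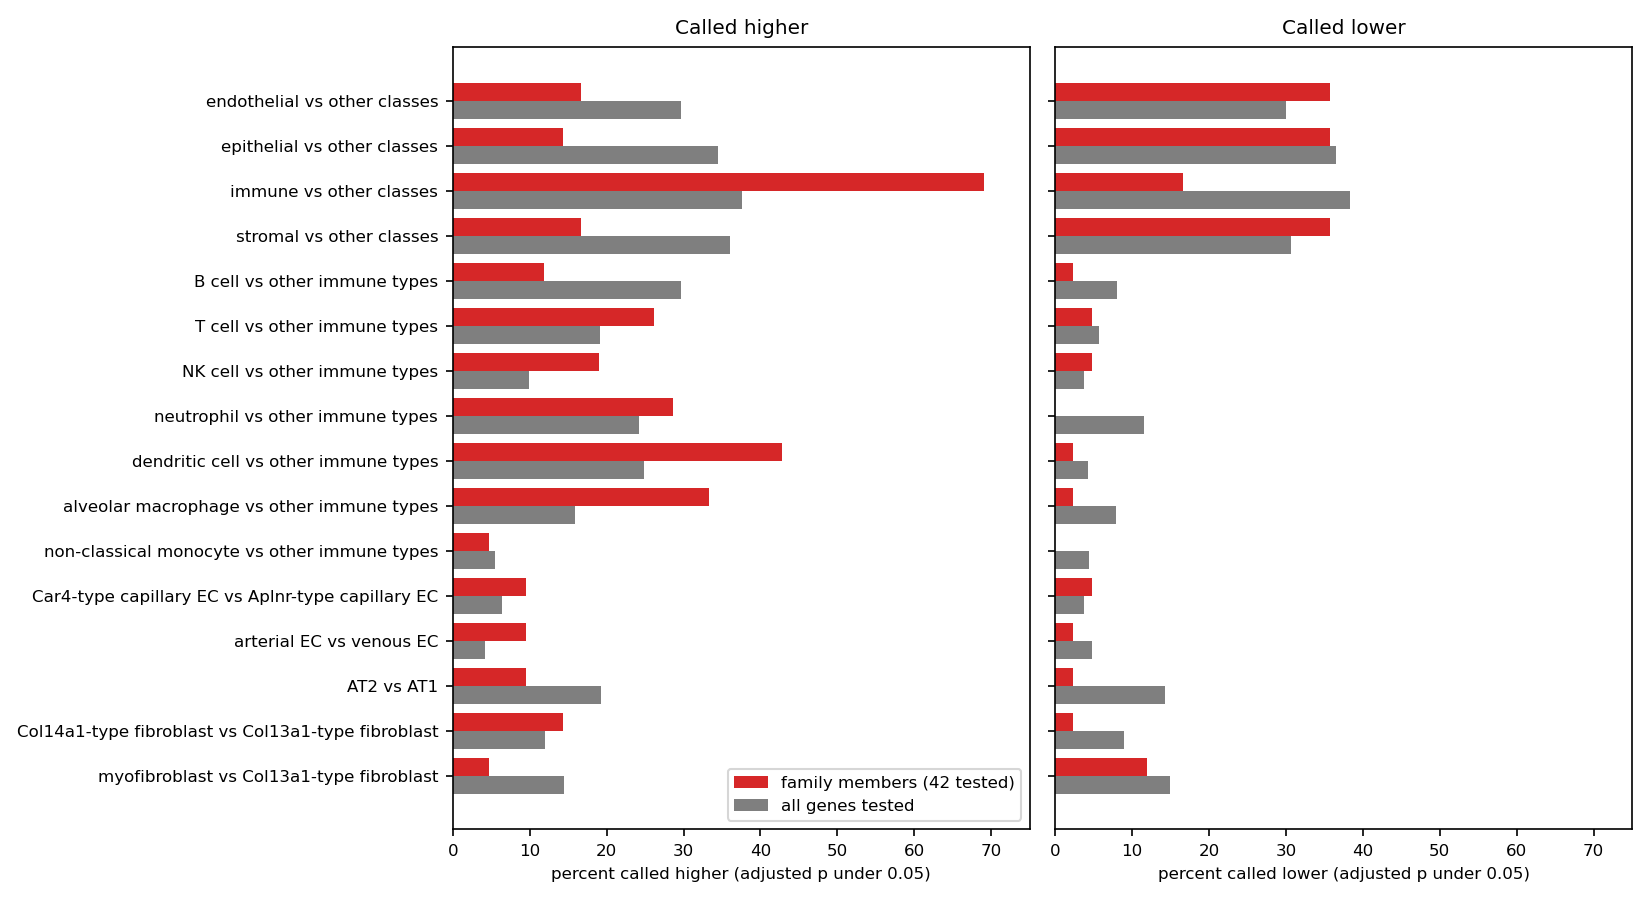
Percent of the 42 tested family members (red) and of all genes tested (grey) called higher (left) or lower (right) in each comparison at an adjusted p under 0.05; each pair of bars is 1 comparison. In the left panel, the red bar is above the grey one for immune cells (69.0% against 37.6%), DCs (42.9% against 24.9%) and alveolar macrophages (33.3% against 15.9%). It is also above for NK cells, T cells, neutrophils and the arterial EC, Car4-type and Col14a1-type pairs. It is below for the other 3 classes, B cells, non-classical monocytes, AT2 against AT1 and myofibroblasts against Col13a1-type fibroblasts.

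The epithelium was the source of *Cxcl15*, a CXC chemokine named for its lung expression. Its level in AT2 cells, the surfactant-producing cells of the alveolus, was 6271, 6173 and 5821 CPM in mice 2, 3 and 4. In AT1 cells, the flat cells of gas exchange, it was 1361, 2166 and 2176 CPM, and in club cells 1724, 150 and 703 CPM. AT2 cells were above both other epithelial types in every mouse, without overlap. AT2 cells exceeded AT1 cells by 2.01 ± 0.59 (SE) on the log2 scale (edgeR, adjusted p = 0.0055), a call that DESeq2 did not make. In epithelial cells as a class *Cxcl15* was higher by 8.20 ± 0.32 (edgeR, adjusted p = 5.5e-12).

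At least 1 UMI of *Cxcl15* was seen in 1041 of 1043 AT2 cells (99.8%). B cells, which should lack it, gave 7.29%, with median depths of 16194 UMIs in AT2 and 3960.5 in B cells. After thinning every cell to 1000 UMIs the shares were 97.3% and 2.01%. The AT1 level came from a part of the cells: 68 of 166 AT1 cells had a UMI. The AT1 clusters split accordingly, and 38 cells of 1 cluster had 3292 ± 431 CPM (SD, n = 3) beside 35.0 ± 6.98 CPM in the 128 cells of the other. Club cells were shallow, with a median of 753 UMIs, and 1 cell held 1183 of their 2453 *Cxcl15* UMIs. In Col13a1-type fibroblasts, 276 of 293 *Cxcl15* UMIs came from 1 cell, and without cells marked as doublets the levels there were 1.78, 1.39 and 8.57 CPM.

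*Cxcl17*, a mucosal chemokine-like protein of airways, was a club cell gene at 90.1, 190 and 75.8 CPM, against 2.33 to 3.52 CPM in AT2 cells. Every mouse had club cells above AT2 cells, and epithelial cells as a class were higher by 7.36 ± 0.42 on the log2 scale (edgeR, adjusted p = 5.4e-10). *Cxcl16*, a membrane-bound ligand of *Cxcr6*, had 160, 176 and 159 CPM in AT1 cells and a mean of 33.5 CPM in AT2 cells. AT2 cells were thus lower than AT1 cells, by -1.96 ± 0.17 on the log2 scale (edgeR, adjusted p = 2.6e-14). In the AT2 against AT1 comparison 4 members were higher and 1 lower, where 19.2% and 14.3% of all genes were called. The other 3 higher members were *Cxcr4*, *Ccl27a* and *Ccl25*, with log2 fold changes of 3.09, 1.14 and 0.88. These 3 calls were each lost without mouse 4 and without TMM scaling.

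The remaining epithelial calls were smaller. *Ccl27a*, known as a skin chemokine that binds *Ccr10*, was higher in epithelial cells by 1.47 and in stromal cells by 1.82 on the log2 scale. Its highest type was smooth muscle, at 32.7, 34.6 and 21.8 CPM, followed by myofibroblasts at 21.9, 19.7 and 26.0 CPM, and these neighbours overlapped between mice. *Cxcl3* was called higher in epithelial cells by 3.63 ± 1.34 (edgeR, adjusted p = 0.032), but its AT2 level was only 0.465 to 4.99 CPM, and the call was lost without mouse 3, without mouse 4 and with the mouse as a block. *Ccl25*, a thymus and gut ligand of *Ccr9*, varied little, with means of 17.7, 10.4, 16.6 and 15.6 CPM in endothelial, epithelial, immune and stromal cells. It was called lower in epithelial and higher in immune cells, by -0.31 and 0.27 on the log2 scale, and both calls were lost without mouse 3 and without mouse 4.

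**Figure D3:**
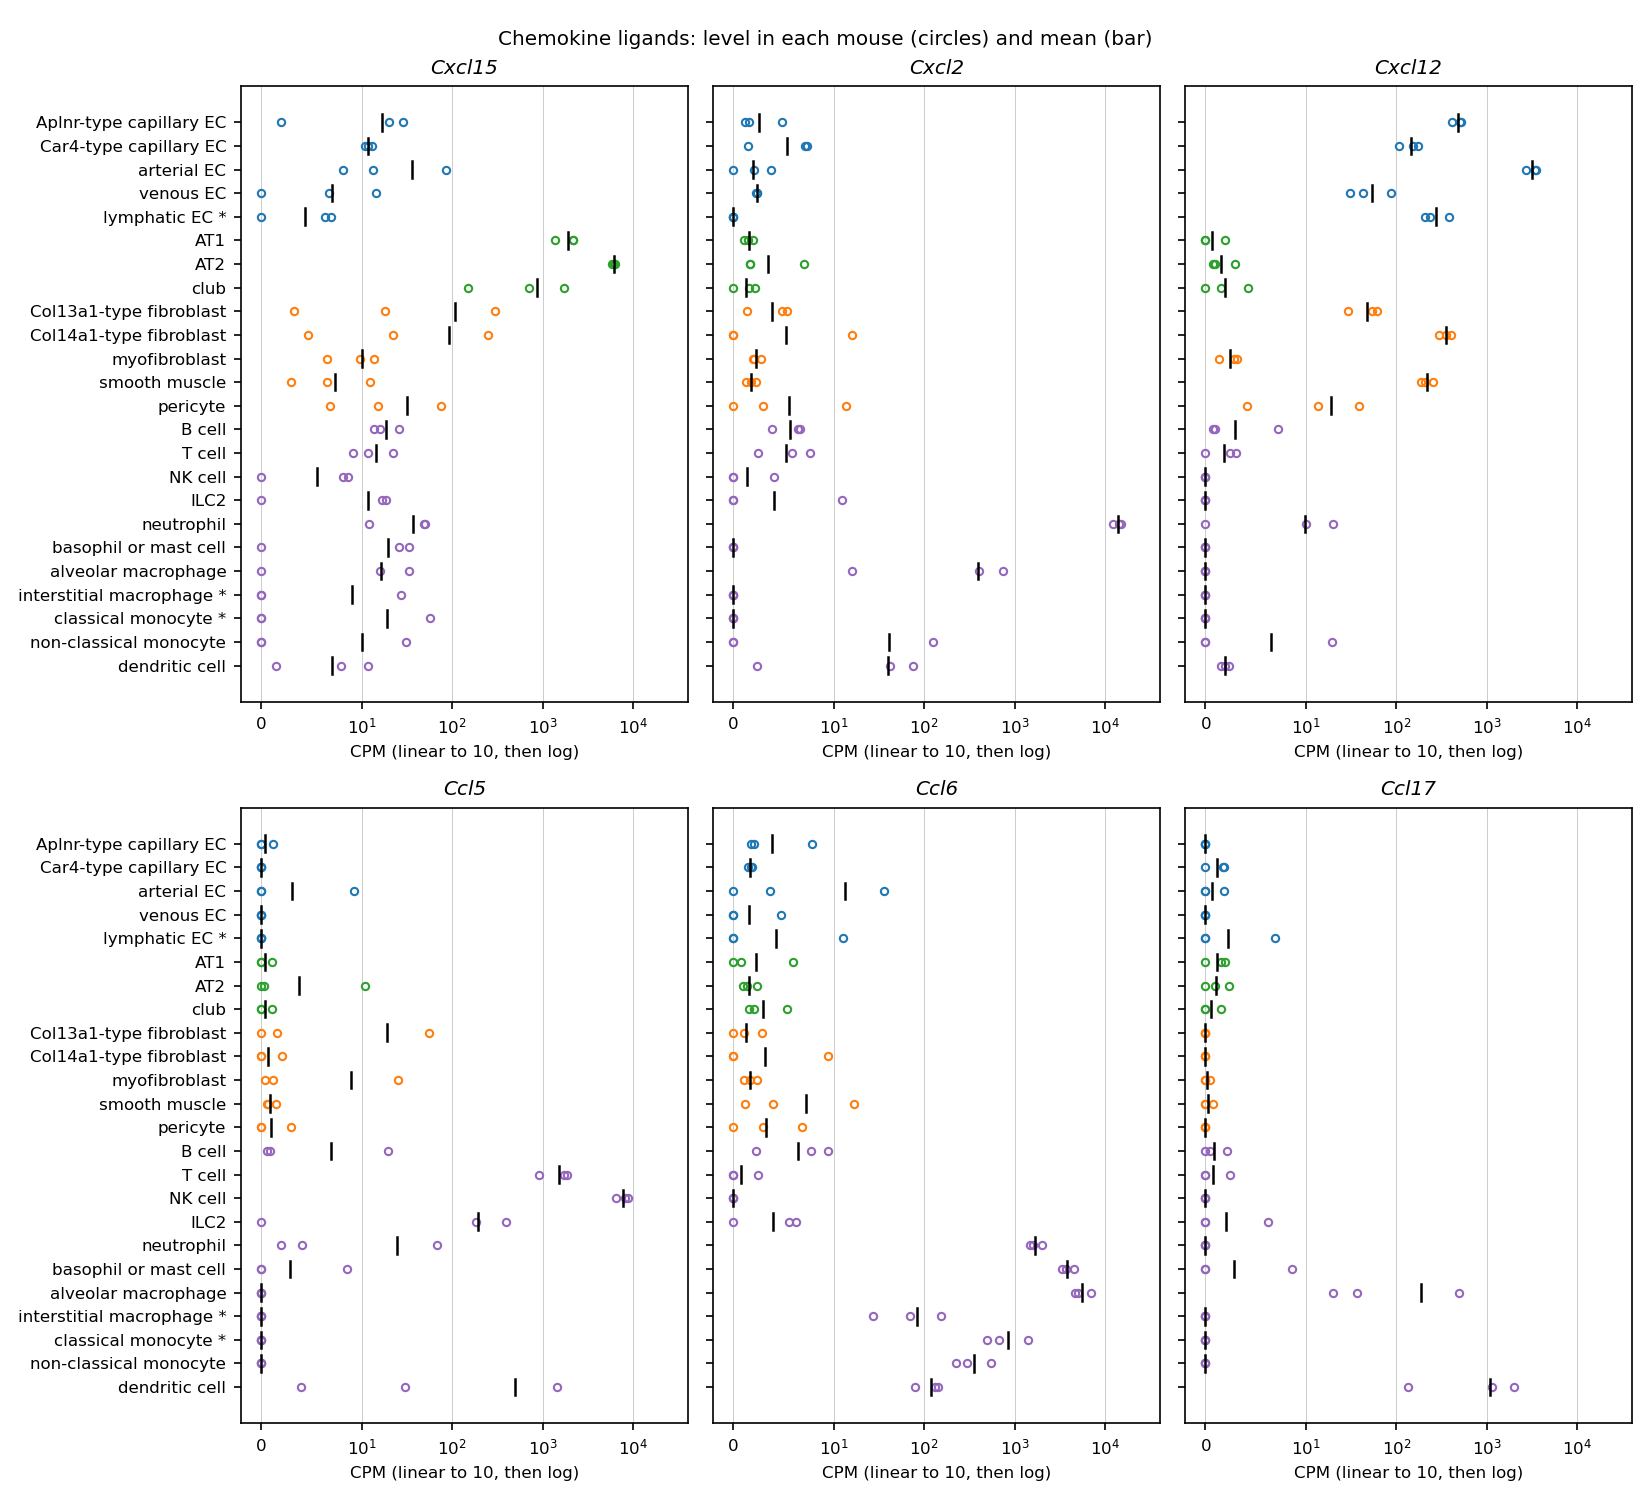
Level in CPM (horizontal axis, linear up to 10 and logarithmic above) of 6 ligands in 24 cell types (vertical axis; stars mark types with fewer than 10 cells in most mice); circles are the 3 mice, bars their mean, and colours the classes. *Cxcl15* peaks in AT2 cells near 6089 CPM, *Cxcl2* in neutrophils near 13642, *Cxcl12* in arterial ECs near 3176, *Ccl5* in NK cells near 7803 and *Ccl6* in alveolar macrophages near 5516, while the 3 mice lie far apart for *Ccl17* in DCs.

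The endothelium was the main source of *Cxcl12*, the ligand of *Cxcr4* that retains and recruits progenitors and patterns vessels. As a class, endothelial cells had 854, 736 and 784 CPM, stromal cells 85.5, 120 and 78.5 CPM, and epithelial and immune cells under 5 CPM in every mouse. Endothelial cells lay above all other classes in every mouse, by 6.47 ± 0.16 on the log2 scale against their mean (edgeR, adjusted p = 5.1e-14). Stromal cells were also called higher, by 2.53 ± 0.19, against the log-scale mean of the rest, which the epithelial and immune cells near 0 pull down. They were below endothelial cells in every mouse.

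Within the endothelium the level of *Cxcl12* followed the vessel type. Arterial ECs had 3455, 2674 and 3398 CPM. Aplnr-type capillary ECs, the general capillary cells, had 523, 409 and 508 CPM, and Car4-type capillary ECs, the large capillary cells of the alveolus, 173, 153 and 108 CPM. Venous ECs had 43.0, 86.1 and 31.0 CPM, so the 4 types kept this order in all 3 mice without overlap. Arterial exceeded venous ECs by 5.87 ± 0.31 on the log2 scale (edgeR, adjusted p = 3e-21), and Car4-type were below Aplnr-type capillary ECs by -1.76 ± 0.25 (adjusted p = 4.9e-07). At least 1 UMI was found in 153 of 163 arterial ECs, 93.9%, against 0.729% of B cells.

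The receptor *Cxcr4* and the atypical receptor *Ackr3*, which takes up *Cxcl12*, took opposite sides of the vessel tree. *Cxcr4* in arterial ECs was 410, 347 and 315 CPM and in venous ECs 0, 2.39 and 4.77 CPM. *Ackr3* in venous ECs was 909, 889 and 1271 CPM and in arterial ECs 76.1, 89.2 and 76.0 CPM. For both genes the 2 vessel types did not overlap in any mouse: *Cxcr4* was higher in arterial ECs by 7.15 ± 0.48 (edgeR, adjusted p = 3.6e-18) and *Ackr3* lower there by -3.69 ± 0.20 (adjusted p = 2e-18). UMIs of *Ackr3* were in 102 of 105 venous ECs (97.1%; exact 95% binomial interval 91.9 to 99.4%, counting error only), against 0.617% of B cells and 0.192% of AT2 cells. Median depths were 8948 UMIs in venous ECs and 3960.5 in B cells. After thinning to 1000 UMIs the share was 59.5% in venous ECs and 0.145% in B cells. *Cxcl12* and *Ackr3* were found together in 280 cells, 28.1% of the *Cxcl12* cells and 42.3% of the *Ackr3* cells.

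Arterial against venous ECs gave 4 members higher and 1 lower, where 4.25% and 4.81% of all genes were called. The others higher in arterial ECs were *Ackr4* and *Cx3cl1*. *Ackr4*, the atypical receptor for *Ccl19*, *Ccl21a* and *Ccl25*, had 35.3, 30.4 and 36.1 CPM in arterial and 0, 4.78 and 4.77 CPM in venous ECs, without overlap (log2 fold change 3.36 ± 0.63, edgeR adjusted p = 0.00022). Aplnr-type and Car4-type capillary ECs lay between them, with means of 19.1 and 16.4 CPM, and overlapped each other. The call of *Cx3cl1* (1.84 ± 0.46) was lost without mouse 2 and without mouse 3.

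Car4-type against Aplnr-type capillary ECs gave 4 members higher and 2 lower, where 6.38% and 3.76% of all genes were called. *Cx3cl1* (fractalkine), a membrane-bound ligand that monocytes adhere to through *Cx3cr1*, had 55.4, 149 and 82.6 CPM in Car4-type and 18.4, 15.7 and 25.9 CPM in Aplnr-type cells. *Ackr2*, the scavenger of inflammatory CC chemokines, had 97.8, 122 and 84.1 CPM in Car4-type and 40.3, 41.1 and 39.1 CPM in Aplnr-type cells. Every mouse had more of both genes in Car4-type cells, by 2.19 ± 0.31 and 1.31 ± 0.29 on the log2 scale (edgeR, adjusted p = 1.5e-06 and 0.0016). *Cxcl16* was higher by 1.48, a call lost without mouse 2, and *Cxcl14* was called too, but this came from 7 of 178 cells and was lost without mouse 4 and without marked doublets. *Cxcr4* was lower in Car4-type cells, with 44.3, 61.1 and 50.2 CPM against 175, 203 and 173 CPM in Aplnr-type cells (log2 fold change -1.83 ± 0.25, edgeR adjusted p = 1e-07).

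As a class, endothelial cells were called higher for *Ackr4*, *Cxcl12*, *Ackr3*, *Ackr2*, *Cxcl10*, *Cx3cl1* and *Cxcr4*. The call of *Cxcl10* (5.53 ± 1.35, edgeR adjusted p = 0.0033) rested on 1 Aplnr-type cell of mouse 4 that held 194 UMIs. Without mouse 4 its log2 fold change was -0.90. *Cxcl9*, the related interferon-induced ligand, had 29 UMIs in kept cells, 23 of them in 1 Aplnr-type cell of mouse 3. *Ackr1*, the atypical receptor known from venules and red cells, had 32 UMIs, of which 9 were in lymphatic ECs, and did not reach 20 CPM in a ranked type.

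**Figure D4:**
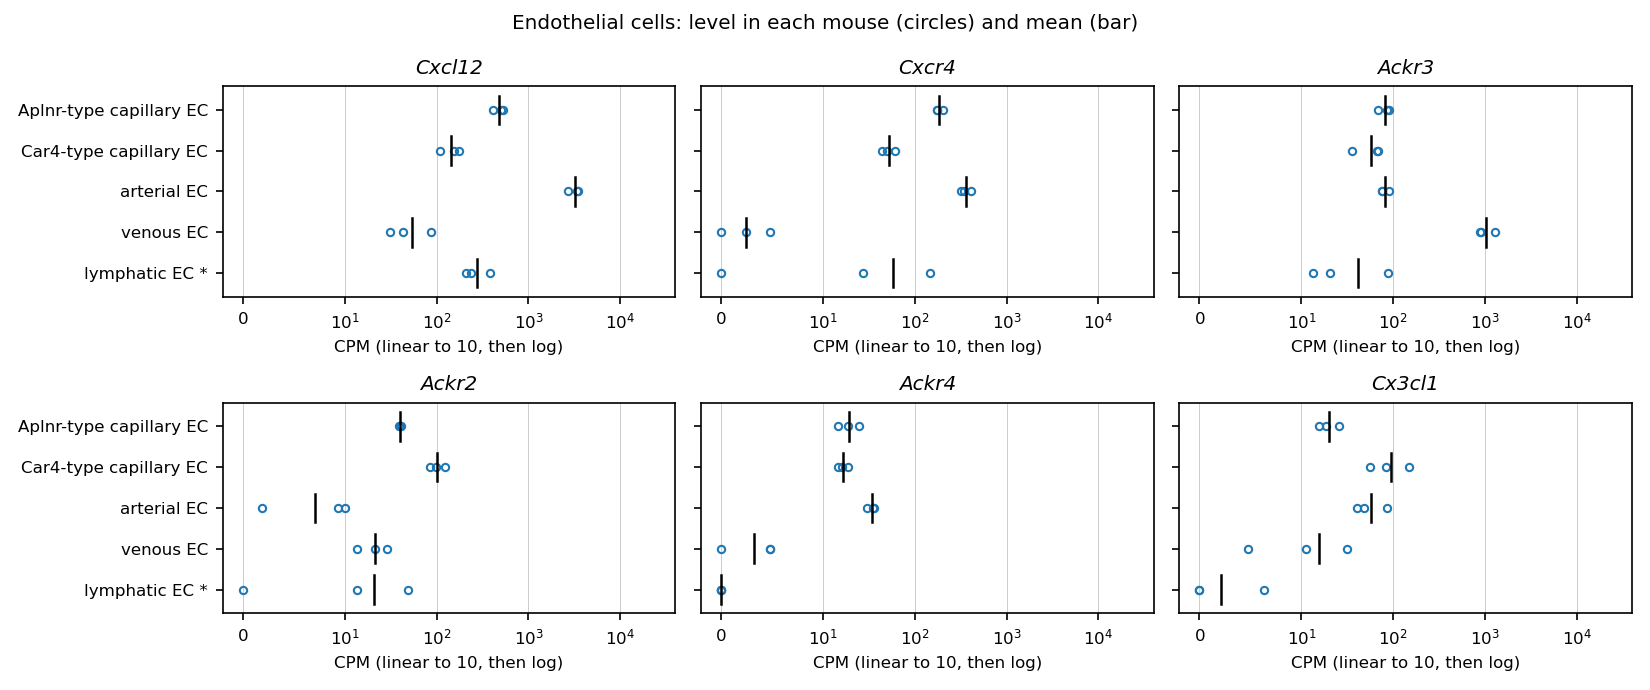
Level in CPM (horizontal axis, linear up to 10 and logarithmic above) of *Cxcl12*, *Cxcr4*, *Ackr3*, *Ackr2*, *Ackr4* and *Cx3cl1* in 5 EC types; circles are the 3 mice and bars their mean, and the star marks lymphatic ECs with fewer than 10 cells in most mice. *Cxcl12*, *Cxcr4* and *Ackr4* are highest in arterial ECs, *Ackr3* in venous ECs, and *Ackr2* and *Cx3cl1* in Car4-type capillary ECs.

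A few lymphatic ECs carried *Ccl21a*, the ligand that draws *Ccr7* cells into lymphatics. They had 2971, 0 and 6916 CPM, so 1 mouse had none. Its 1469 UMIs lay in 5 of 23 cells, and 12 of the 23 cells were marked as doublets. Without marked doublets, 486 UMIs remained, all in 1 of 11 cells, from mouse 4. The exact reads of the *Ccl21* copies cannot be told apart, and the other copies were at 0. *Ccl19*, the other *Ccr7* ligand, was a stromal gene, with 15.5, 6.02 and 10.6 CPM in smooth muscle and 4.86, 7.02 and 3.72 CPM in myofibroblasts, which overlap. Stromal cells as a class were higher in *Ccl19* by 7.76 ± 0.57 on the log2 scale (edgeR, adjusted p = 2.4e-06).

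Stromal cells were called higher for *Ccl11*, *Ccl19*, *Cxcl14*, *Cxcl13*, *Cxcl12*, *Ackr3* and *Ccl27a*. *Cxcl14*, a homeostatic chemokine of epithelia and fibroblasts, had 487, 689 and 430 CPM in pericytes, the contractile cells around capillaries. Col13a1-type fibroblasts, the alveolar fibroblasts, had 443, 534 and 443 CPM, which overlaps with pericytes. Col14a1-type fibroblasts, the adventitial cells around vessels and airways, had 133, 22 and 78.5 CPM, below both in every mouse (-2.61 ± 0.30 on the log2 scale against Col13a1-type, edgeR adjusted p = 5.4e-09). Myofibroblasts were lower still, at 10.4, 16.4 and 6.86 CPM.

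*Ccl11* (eotaxin), the ligand of *Ccr3*, had 166, 77 and 112 CPM in Col14a1-type and 0, 35.6 and 14.1 CPM in Col13a1-type fibroblasts. The 2 fibroblast types did not overlap, with a log2 fold change of 2.77 ± 0.56 (edgeR, adjusted p = 0.00058), though 27 of 100 Col14a1-type cells had a UMI and DESeq2 did not make the call. *Cxcl12* was 297, 401 and 353 CPM in Col14a1-type fibroblasts and 187, 251 and 208 CPM in smooth muscle. Its mean was 47.8 CPM in Col13a1-type fibroblasts and 2.46 CPM in myofibroblasts. *Ackr3* was 125, 146 and 84.2 CPM in Col14a1-type fibroblasts, 28.1, 25.7 and 30.3 CPM in myofibroblasts, and 0 in 210 Col13a1-type fibroblasts. That count of 0 allows up to 1.43% of those cells to hold a UMI and sets no limit on how many express the gene.

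Col14a1-type against Col13a1-type fibroblasts gave 6 members higher and 1 lower, where 11.9% and 8.91% of all genes were called. Myofibroblasts against Col13a1-type fibroblasts gave 2 higher and 5 lower, where 14.5% and 15% were called. In the first comparison, *Ccl4* was called on 87 UMIs of Col14a1-type cells, 86 of them in 1 cell of mouse 3, and *Cx3cl1* lost its call without any 1 mouse. In the second, *Ackr3* and *Cxcl16* were higher and *Ccl11*, *Cxcl14*, *Ackr2*, *Cxcl12* and *Cxcl15* lower. The calls of *Ackr2* and *Cxcl15* there were lost without mouse 3. *Cxcl13*, the ligand that draws *Cxcr5* B cells into follicles, was found in pericytes at 45.1, 0 and 16.5 CPM from 19 UMIs. *Ccl8* in Col14a1-type fibroblasts came from 31 UMIs in 4 cells.

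Neutrophils had the highest level of *Cxcl2*, a ligand of *Cxcr2* that they both make and follow. It was 14794, 14066 and 12064 CPM in neutrophils and 741, 15.8 and 404 CPM in alveolar macrophages, the next type. Neutrophils lay 35.2-fold above that type by the mean and overlapped with no type (edgeR against the mean of the other immune types, adjusted p = 2.7e-38). They held 97.1% of the 15342 *Cxcl2* UMIs in kept cells, and 422 of 464 neutrophils had a UMI, against 2.02% of B cells. In this comparison 12 members were higher and 0 lower, where 24.2% and 11.6% of all genes were called. At an unadjusted p under 0.05 edgeR also had 0 lower, and DESeq2 called 2 lower.

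The receptors of neutrophils stood beside this ligand. *Cxcr2* was 384, 548 and 425 CPM in neutrophils and 472, 490 and 380 CPM in basophils or mast cells, and the 2 types overlapped. *Ccr1*, a receptor for inflammatory CC ligands, was 993, 965 and 971 CPM in neutrophils and 512, 412 and 380 CPM in basophils or mast cells, without overlap. *Cxcr4*, which holds aged neutrophils in marrow and lung, was 816, 951 and 864 CPM in neutrophils and 601, 464 and 595 CPM in pericytes. All 3 receptors were higher in neutrophils than in the mean of the other immune types (edgeR, adjusted p = 2.1e-28, 8.8e-40 and 2.8e-34). *Cxcr1*, the other neutrophil receptor, had 3 UMIs in kept cells.

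The other calls of neutrophils were *Cxcl1*, *Cxcl3*, *Cxcl10*, *Ccl6*, *Ccl3*, *Ccl4*, *Cxcl12* and *Ccl2*. Of these, *Cxcl12* had a mean under 20 CPM in neutrophils, far below its level in ECs. *Cxcl1* was 125, 74.9 and 31.0 CPM, from 16 of 464 cells. *Cxcl3* was 36.3, 115 and 22.5 CPM and *Cxcl10* 40.4, 54.6 and 56.3 CPM, from 16 and 21 cells. DESeq2 did not make the calls of *Cxcl3*, *Cxcl10* and *Ccl2*. By the mean, alveolar macrophages were above neutrophils for *Cxcl3* and *Cxcl10*, but those UMIs came from 1 alveolar macrophage each, with 44 UMIs of *Cxcl3* and 41 of *Cxcl10*.

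Basophils or mast cells (45 cells, of which 6 were in mouse 2) were highest for *Ccl3*, *Ccl4* and *Ccl9*, inflammatory CC ligands. *Ccl3* was 3070, 2405 and 2613 CPM there and 1026, 791 and 723 CPM in neutrophils, without overlap. *Ccl4* was 1693, 1829 and 2861 CPM there and 2382, 1188 and 1010 CPM in neutrophils, which overlap. *Ccl9* was 3700, 3564 and 3192 CPM there and had a mean of 199 CPM in alveolar macrophages, the second ranked type, so that basophils or mast cells stood apart. Their mean over the 2 mice with 10 or more cells was 17.0-fold above that type. *Ccl3* and *Ccl4* were found together in 105 cells, 39.2% of the *Ccl3* cells and 45.9% of the *Ccl4* cells. *Ccl2*, the monocyte ligand of *Ccr2*, reached the top of the ranked types in basophils or mast cells through 67 UMIs in 1 cell.

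Alveolar macrophages were highest for *Ccl6*, a rodent ligand of *Ccr1*. It was 7010, 4589 and 4950 CPM there, 3306, 4483 and 3655 CPM in basophils or mast cells and 1466, 2001 and 1579 CPM in neutrophils. Alveolar macrophages lay above basophils or mast cells in every mouse, narrowly so in mouse 3. They were called higher for 14 members and lower for 1, where 15.9% and 7.91% of all genes were called. The lower member was *Ccr2*, with 0 UMIs in 60 alveolar macrophages, which allows up to 5% of those cells to hold a UMI, and a mean of 577 CPM in DCs. Its call was lost without mouse 3. Without mouse 2, 8 members were called higher.

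The calls of alveolar macrophages rested on few cells for several genes. *Cxcl2*, *Ccl6* and *Ccl9* had UMIs in 10, 59 and 18 of 60 cells (edgeR, adjusted p = 1e-10, 1.1e-33 and 6.6e-10). *Ccl4* had 239 UMIs in 7 cells at 607, 437 and 523 CPM. *Cxcl3*, *Cxcl10* and *Cxcl1* each came from 1 cell, and *Ccl17* from 5 cells. Those with the largest increase included *Cxcl3*, *Ccl6*, *Cxcl10*, *Ccl17*, *Cxcl1*, *Ccl24*, *Ccl9*, *Cx3cl1*, *Cxcl2*, *Cxcl16* and *Ccl4*. Of the 14 higher calls, 10 were lost without 1 mouse or another. The lost calls included *Ccl17*, *Ccl24*, *Ccl3*, *Ccr1* and *Cxcl3* without mouse 2, *Cx3cl1* and *Cxcl16* without mouse 3, and *Cxcl1*, *Cxcl10* and *Ccl24* without mouse 4.

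Interstitial macrophages (18 cells) were not ranked. They carried nearly all of *Ccl12*, a mouse ligand of *Ccr2*, with 88 of 90 UMIs in 9 cells and 915, 788 and 721 CPM. They also had 37 of 43 *Ccl7* UMIs, 32 of them in 1 cell. *Cxcl16* was 864, 625 and 1091 CPM there, above every ranked type. *Cx3cr1* was 1626, 679 and 985 CPM there. With 4, 5 and 9 cells in the 3 mice, these levels are values without a test.

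DCs were called higher for 18 members and lower for 1, where 24.9% and 4.34% of all genes were called. DESeq2 called 9 higher and 1 lower. DCs had the most calls of the 7 immune types compared in edgeR but not in DESeq2, where B cells had 18 calls and DCs 10. Those with the largest increase included *Xcr1*, *Ccl17*, *Ccl22*, *Ccl24*, *Cxcl16*, *Ccr9*, *Cx3cl1*, *Ccr7*, *Ccl9*, *Ccl5* and *Ccr2*, and the lower member was *Cxcr4*. The call of *Cxcr4* was lost without mouse 3 and without mouse 4, and of the 18 higher calls 4 were lost without 1 mouse or another, those of *Ccl2*, *Ccl3*, *Ccl4* and *Ccl5*. *Ccl17* and *Ccl22*, the ligands of *Ccr4* that attract T cells, were 1139, 2009 and 133 CPM and 660, 738 and 277 CPM (edgeR, adjusted p = 4.1e-18 and 1.6e-24). The 3 mice spread widely, and the lowest *Ccl17* value overlapped with the alveolar macrophages of mouse 2 at 497 CPM. *Ccl22* in all other ranked types had means of at most 2.72 CPM. DCs held 96.4% of the *Ccl22* and 94.3% of the *Ccl17* UMIs in kept cells. Both genes could thus pass the count filter through DCs alone, and their p-values are not separate support for a DC source. UMIs of *Ccl17* were in 47 and of *Ccl22* in 19 of 188 DCs, and both were in 10 cells of the whole data.

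Of these ligands, *Ccl22* lay mainly in 1 DC sub-cluster, here named migratory, while *Ccl17* was found both there and in cDC2-like cells. In the 69 cells of the sub-cluster named migratory, *Ccl22* was 6808, 4673 and 1116 CPM and *Ccl17* 7378, 3139 and 207 CPM. A few cells carried these values: *Ccl22* UMIs were in 15 of the 69 cells, with 332 of 840 in 1 cell, and *Ccl17* UMIs in 19, with 313 of 642 in 1 cell. Of the 69 cells, 38 had 1000 or more UMIs. In 48 cDC2-like cells, *Ccl17* was 1312, 3312 and 274 CPM, above the migratory cells in mice 3 and 4, with UMIs in 27 cells. *Ccl22* was 69.3, 271 and 0 CPM there. *Ccr7*, which takes mature DCs to lymph nodes, was 42, 946 and 603 CPM in the migratory cells. Only 9 of the 69 cells had its UMIs, so the name migratory is uncertain. *Ccl6* and *Ccl9* UMIs were in 21 and 15 of the 69 cells, and in 19 and 15 of the 48 cDC2-like cells. With the stricter filter described below, *Ccl17*, *Ccl22*, *Ccl24* and *Ccr7* were highest in a cluster then named interstitial macrophage. Whether that cluster holds the cells named migratory here was not tested. In 36 cDC1-like cells, 35 had UMIs of *Xcr1*, the receptor of cross-presenting DCs, at 665, 495 and 541 CPM. UMIs of *Xcr1* were in 46 of 188 DCs, and 45 of the 52 *Xcr1* cells also had *Clec9a*, a cDC1 marker.

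Some DC values were set by single cells. *Ccl24*, an eotaxin, was 15.8, 893 and 28.0 CPM, with 410 of 608 UMIs in 1 cell. *Ccl5* was 3.95, 30.4 and 1457 CPM, with 401 of 647 UMIs in 1 cell, and its call was lost without mouse 4. The call of *Ccl4* was lost without mouse 3, where the log2 fold change was -0.072. *Cxcl16* was steadier, at 166, 161 and 235 CPM in 83 of 188 DCs, and overlapped with the level in AT1 cells.

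NK cells were highest for *Ccl5* (RANTES), a ligand of *Ccr1* and *Ccr3*. It was 8861, 8073 and 6474 CPM in NK cells and 1845, 1735 and 905 CPM in T cells, without overlap (edgeR against the other immune types, adjusted p = 3.4e-15 for NK and 4.5e-08 for T cells). UMIs were in 74 of 77 NK cells (96.1%), 71 of 213 T cells (33.3%) and 0.392% of B cells. *Xcl1*, the ligand of *Xcr1*, was 89.7, 41.0 and 338 CPM in NK cells from 18 cells, and 5.81, 26.0 and 7.34 CPM in T cells. Every mouse had NK cells above T cells for *Xcl1*. *Ccl4* in NK cells was 73.4, 443 and 1447 CPM, and its call was lost without mouse 4. *Ccl1* in NK cells came from 24 UMIs in 1 cell.

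NK cells were called higher for 8 members and lower for 2, where 9.87% and 3.76% of all genes were called. The receptors among the 8 included *Ccr2*, *Cxcr3* and *Cx3cr1*, of which *Cx3cr1* lost its call without mouse 3. The 2 lower members were *Ccl6*, whose call was lost without mouse 4, and *Ccr1*, whose call was lost without mouse 3. *Cxcr3*, the receptor of interferon-induced ligands, was 57.1, 82.1 and 139 CPM in NK cells and 87.2, 70.3 and 58.7 CPM in T cells, which overlap.

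*Ccr2*, the receptor by which monocytes leave the marrow, was widely shared. It was 718, 763 and 1005 CPM in NK cells, 721, 745 and 949 CPM in group 2 innate lymphoid cells (ILC2s), 590, 730 and 695 CPM in basophils or mast cells and 625, 611 and 497 CPM in DCs. NK cells and ILC2s did not differ beyond their spread, and T cells were lower at 122, 148 and 152 CPM. Within DCs, sub-clusters of 18 and 17 cells without a sub-type name had means of 1384 and 942 CPM, with UMIs in every cell. The migratory, cDC2-like and cDC1-like cells had means of 186, 458 and 460 CPM. The 17 classical monocytes had 1199, 1269 and 1589 CPM, with UMIs in all 17 cells. Immune cells as a class were higher in *Ccr2* by 8.24 ± 0.18 on the log2 scale (edgeR, adjusted p = 1e-14).

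*Cx3cr1*, the fractalkine receptor, was highest among the ranked types in non-classical monocytes, the patrolling monocytes. They had 764, 473 and 686 CPM and were called higher than the other immune types (edgeR, adjusted p = 7.4e-14). Non-classical monocytes had 2 members higher and 0 lower, where 5.47% and 4.4% of all genes were called, and 0 were lower at an unadjusted p under 0.05 and by DESeq2. The other higher member was *Ccl6*, whose call was lost without mouse 2. NK cells and DCs had means of 52.2 and 42.4 CPM of *Cx3cr1*. In DCs, a sub-cluster of 18 cells without a sub-type name had a mean of 203 CPM, with UMIs in 12 cells. The 17 classical monocytes, not ranked, had 160, 212 and 539 CPM, which overlaps with non-classical monocytes, and the unranked interstitial macrophages had a higher mean than both, 1097 CPM.

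**Figure D5:**
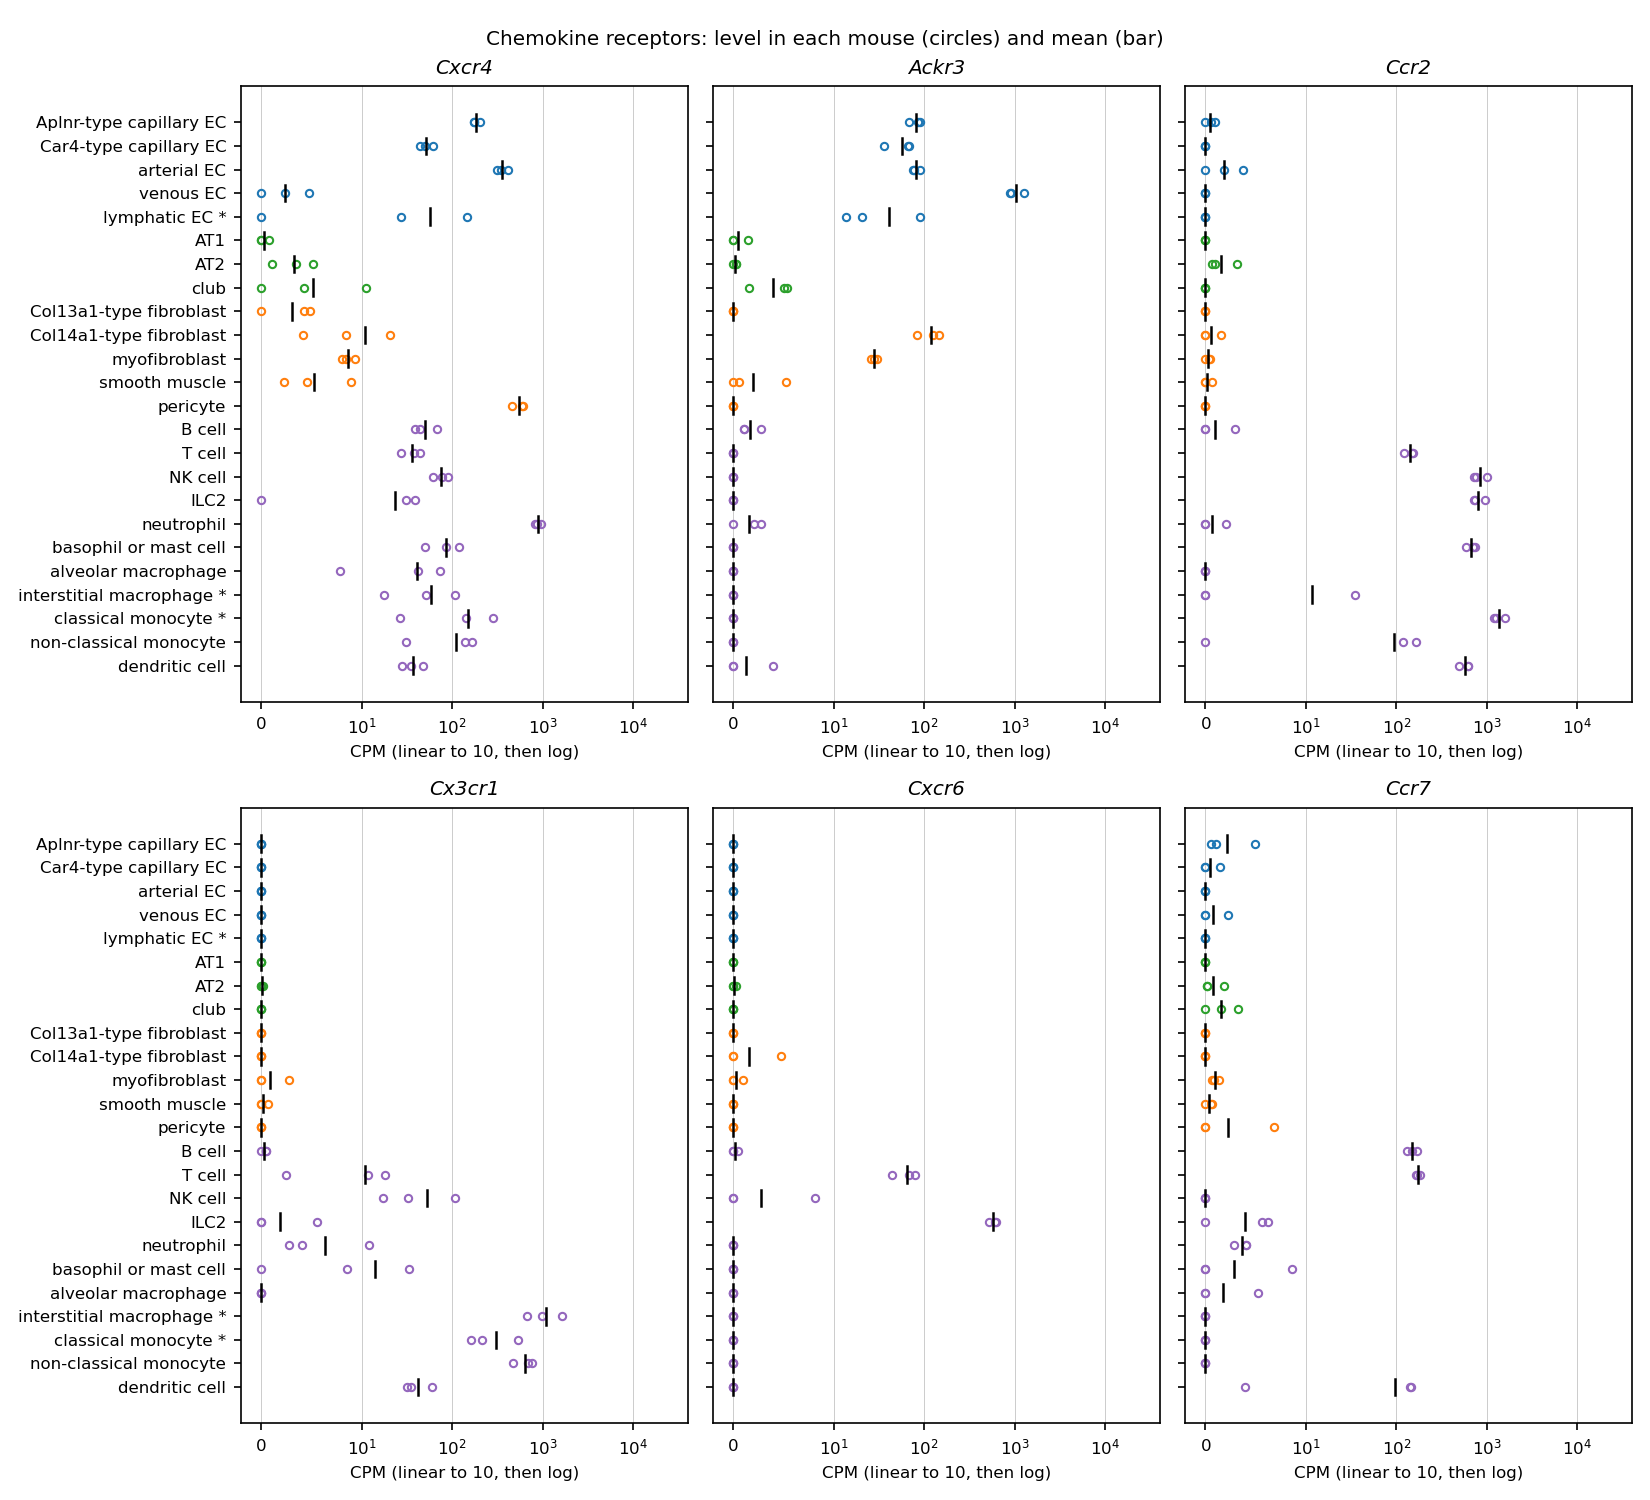
Level in CPM (horizontal axis, linear up to 10 and logarithmic above) of 6 receptors in 24 cell types (vertical axis; stars mark types with fewer than 10 cells in most mice); circles are the 3 mice, bars their mean, and colours the classes. *Cxcr4* is spread over neutrophils, pericytes, ECs and lymphocytes, *Ackr3* peaks in venous ECs near 1023 CPM, *Cxcr6* in ILC2s near 581, and *Ccr7* in T and B cells near 172 and 150.

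*Cxcr6*, the receptor of *Cxcl16* on tissue-resident lymphocytes, was 597, 521 and 625 CPM in ILC2s and 43.6, 79.5 and 68.5 CPM in T cells. ILC2s lay above T cells in every mouse, with UMIs in 67 of 75 ILC2s and 45 of 213 T cells. *Ccr4*, the receptor of *Ccl17* and *Ccl22*, was 31.1, 33.6 and 18.4 CPM in ILC2s, and T cells had 0, 21.4 and 19.6 CPM, which overlap. *Ccr3*, the eotaxin receptor, was 0, 85.9 and 82.7 CPM in basophils or mast cells, from 15 UMIs.

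B cells carried *Cxcr5*, the receptor of *Cxcl13* for entry into follicles, at 144, 144 and 163 CPM. T cells had 14.5, 6.12 and 2.45 CPM, so B cells stood apart (edgeR, adjusted p = 8.4e-20). UMIs were in 749 of 1784 B cells (42%) and in 0.192% of AT2 cells, which are deeper. *Ccr6*, the receptor of *Ccl20*, was 29.3, 36.1 and 45.7 CPM in B cells, above every other ranked type in each mouse, though DESeq2 did not make this call. B cells had 5 members higher and 1 lower, where 29.6% and 8.11% of all genes were called. The others higher were *Ccr7*, *Ackr2* and *Ccl25*, and *Ccl3* was lower, while DESeq2 called 14 members lower.

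*Ccr7*, the receptor for homing to lymph nodes, was 183, 164 and 169 CPM in T cells and 131, 170 and 149 CPM in B cells. The 2 types overlapped, and both were above the mean of the other immune types (edgeR, adjusted p = 6.6e-11 and 9.1e-13). T cells had 11 members higher and 2 lower, where 19.1% and 5.66% of all genes were called, and DESeq2 called 5 higher. Most of the 11 were receptors, among them *Cxcr6*, *Ccr4*, *Ccr7*, *Cxcr3*, *Ccr3*, *Ccr9*, *Ccr6* and *Ccr2*. Of these, *Ccr3*, *Ccr9* and *Ccr6* had means under 20 CPM in T cells. Each reached 20 CPM in 1 ranked type only: basophils or mast cells, DCs and B cells, in that order. The *Ccr2* call is against a mean on the log scale, and NK cells, ILC2s, basophils or mast cells and DCs all had more *Ccr2* than T cells. Of the 11, 4 lost their call without 1 mouse or another, among them *Ccr9*, *Ccr6* and *Xcl1* without mouse 3. The 2 lower members, *Cxcr4* and *Ccl3*, both lost their call without mouse 3. The sub-clusters of T cells differed among themselves. The sub-cluster of 99 cells named here by *Cd8a* had 2854 ± 1007 CPM of *Ccl5* (SD, n = 3). The 60 cells of that named by *Foxp3* and *Ctla4* had 352 ± 96.3 CPM of *Ccr2*. The 54 cells of that named by *Lef1* and *Tcf7* had 323 ± 73.0 CPM of *Ccr7*. These genes name whole sub-clusters, and their cells were not picked by them. They are not in the marker lists, which gave these sub-clusters only the name T cell. The levels of the naming genes are not given here, so the sub-types are uncertain.

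Textbook ligand and receptor pairs were set side by side, 35 in all, of which 22 had both partners at 20 CPM or more. The pair had the same highest type in 2 of the 22, *Cxcl1* with *Cxcr2* and *Cxcl2* with *Cxcr2*, in neutrophils. For 11 of the 22, at least 1 ranked type reached 20 CPM for both partners. Some of these rest on few cells, such as *Ccl2* in basophils or mast cells, from 1 cell, and *Ccl5* in DCs, mostly from 1 cell. *Cxcl15* with *Cxcr2* counts through neutrophils and basophils or mast cells, though *Cxcl15* was mainly in AT2 cells and also gave UMIs in B cells, which should lack it. *Cxcl12* and *Ackr3* shared 5 such types, which were the 4 ranked EC types and Col14a1-type fibroblasts. No ranked type reached 20 CPM for both partners of *Cx3cl1* with *Cx3cr1*, *Cxcl13* with *Cxcr5*, *Cxcl16* with *Cxcr6*, *Xcl1* with *Xcr1*, *Ccl17* with *Ccr4* or *Ccl22* with *Ccr4*. RNA levels do not show secretion or binding.

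Many members are neighbours in the genome (GENCODE M21 annotation, GRCm38). The stretches given here join members of the assembled chromosomes with gaps of up to 500000 bases. On chromosome 9, from 123678439 to 124113557, lie the receptors *Ccr9*, *Cxcr6*, *Xcr1*, *Ccr1*, *Ccr3* and *Ccr2*, and their highest types were 5 different immune types. On chromosome 11, from 83525778 to 83664683, lie *Ccl5*, *Ccl9*, *Ccl6*, *Ccl3* and *Ccl4*. Basophils or mast cells were highest for *Ccl9*, *Ccl3* and *Ccl4*, NK cells for *Ccl5* and alveolar macrophages for *Ccl6*. On chromosome 8, from 94745590 to 94812036, the EC ligand *Cx3cl1* lies between the DC ligands *Ccl22* and *Ccl17*. On chromosome 5, from 90759360 to 90905938, lie *Cxcl5* and the printed ligands *Cxcl3*, *Cxcl15*, *Cxcl1* and *Cxcl2*. *Ccr9* and *Ackr1* share exon bases with another gene on the same strand, so their UMIs are uncertain.

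Other genes of chemokine biology, from lists of textbook members, were set beside the family. Of 22 tested genes of receptor signalling and trafficking, 15 were higher and 6 lower in immune cells, with a median log2 fold change of 2.06, where 37.6% and 38.3% of all genes were called. Endothelial cells had 10 higher and 5 lower (29.7% and 30% of all genes), stromal cells 7 and 12 (36.1% and 30.7%), and epithelial cells 2 and 15 (34.5% and 36.5%). The immune-high genes included *Rac2*, *Dock2*, *Vav1*, *Pik3cg* and *Pik3r5*, which link leukocyte receptors to actin. Of these, *Rac2* was also a marker used to name immune clusters, so its call was set by the naming. *Grk5*, a receptor kinase, *Plcb3*, a phospholipase, and *Gnai1*, a G protein subunit, were higher in endothelial and stromal cells and lower in immune cells. In epithelial cells *Plcb3* and *Gnai1* were higher too, by 0.58 and 0.72 on the log2 scale, and *Grk5* was lower, by -2.63.

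Of the 7 relatives of the family outside the naming rule, 6 could be tested. *Ccrl2*, a receptor-like protein that presents chemerin, *Pf4*, a platelet chemokine, *Mif* and *Cklf* were higher in immune cells, and *Rarres2*, the chemerin gene, was lower. *Mif* was also higher in epithelial cells, by 1.06 on the log2 scale beside 0.85 in immune cells. *Ccrl2* was also higher in endothelial cells, by 0.83. Immune cells had 4 higher and 1 lower (37.6% and 38.3% of all genes), and endothelial cells 2 and 1 (29.7% and 30%). Stromal cells had 2 and 3 (36.1% and 30.7%), and epithelial cells 1 and 4 (34.5% and 36.5%). By type, *Ccrl2* reached 4461 ± 425 CPM (SD, n = 3) in neutrophils, *Rarres2* 880 ± 58.0 CPM in pericytes and *Cmklr1*, the chemerin receptor, 124 ± 17.6 CPM in Col13a1-type fibroblasts. Of 7 proteases known to cleave or shed chemokines, 5 were higher and 1 lower in endothelial cells (29.7% and 30% of all genes), 4 and 3 in immune cells (37.6% and 38.3%), 2 and 3 in stromal cells (36.1% and 30.7%), and 1 and 2 in epithelial cells (34.5% and 36.5%). *Mmp9*, a gelatinase, was at 1664 ± 167 CPM in neutrophils, and *Mmp2*, the other gelatinase, at 1085 ± 83.8 CPM in Col13a1-type fibroblasts. *Mmp9* was also a marker used to name neutrophils, so its level there is not a separate result. *Dpp4*, which trims *Cxcl12* and other ligands, was higher in epithelial, endothelial and immune cells and lower in stromal cells, each against the log-scale mean of the other classes.

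The 11 members with UMIs that stayed under 20 CPM in every ranked type were *Ackr1*, *Cxcl5*, *Ccl19*, *Cxcl9*, *Ccl7*, *Ccl20*, *Ccl21a*, *Ccl12*, *Ccl28*, *Ccr8* and *Cxcr1*. *Cxcl5*, a ligand of *Cxcr2*, had 95 UMIs, 41 of them in club cells and 48 in AT2 cells. *Ccl20*, the ligand of *Ccr6*, had 14 UMIs, 12 of them in 2 club cells. *Ccr8* and *Ccl28* had 5 and 2 UMIs in kept cells. At this depth, levels under these could not be detected, which does not show that the genes are off.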

How the data were processed

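scRNA-Seq counts came from dissociated whole lungs of 3 C57BL/6 mice at P14, made with 10x Genomics v3 chemistry. Per the labels and the methods of the study, the authors mapped reads with Cell Ranger 3.0.2 to mm10, and the deposited values are raw UMI counts per gene and cell. The authors' Seurat objects and cell types were not used here. The filter dropped cells under 200 genes or over 20% mitochondrial UMIs.

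Libraries were merged and clustered in Seurat 5.3.0 (SCTransform by sctransform 0.4.2, 3000 variable genes, 30 components, Louvain resolution 0.8) with 42 family members removed from the variable genes. Clusters were named from marker lists holding no family member; the naming thresholds were set after clusters were seen, so differences from the study may come from rebuilt names. A scrublet-type caller in scanpy 1.11.5 scored doublets. Its automatic threshold marked only 0.363%, 0.0319% and 0.432% of the cells of mice 2, 3 and 4. The highest scores were therefore marked at a set rate of 0.8% per 1000 cells. This marked 200 kept cells as doublets, which stayed in the main values.

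UMIs were summed per mouse and class or type. A mean of the other classes or types is a mean on the log scale. A gene could pass the count filter through 1 class or type alone. Differences were tested with edgeR 4.0.16 (TMM, filterByExpr, quasi-likelihood) with Benjamini-Hochberg adjustment over all genes tested and a threshold of 0.05. The prior count shapes a fold change against types at 0. On simulated counts, 99% of 200 genes changed by 2 on the log2 scale were found for immune cells (13583 genes) and 99.5% for neutrophils (10826 genes). The changed genes had an expected count over 2 in the smallest sum, all other genes were equal, and no mouse effect was simulated. These shares do not cover members with few UMIs or with UMIs from single cells. Types of 1 mouse share an animal, so the mouse pairs the sums. Same-mouse deviations correlated by -0.05 to 0.27 between classes, and a fit blocked by mouse was tried as an alternative, as were DESeq2 1.42.0, other filters, scalings and clusterings, and leaving out each mouse. Depths and their precision stand in the report. Intervals are exact binomial and cover counting error only.

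A member was described singly at 20 CPM or more in a ranked type, and called members were named, up to 12 a direction; 1 member is in the counts over the family but not reported here, nor in the pairs and gene neighbours. The members and gene lists were chosen with earlier results of these data known. R 4.3.3, Python 3.11.15 and scipy 1.17.1 were used.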

Additional observations from a re-analysis of the deposited data

Results flagged for a closer look

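Of the 9002 *Ccl6* UMIs in all cells, 3231 were in cells that the filter left out, and of the 17 *Cxcr1* UMIs, 14 were. These cells are in no comparison. There were 2000 cells with more than 20% mitochondrial UMIs. Among them, 112 cells had 10 or more *Ccl6* UMIs each and 2092 such UMIs together, and 107 of the 112 had at least 3 of 7 alveolar macrophage markers. The highest named type of *Ccl6* was the alveolar macrophage, of which 60 cells were kept.

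Clusters outside the 4 classes held levels above those of every named type for 3 members. *Ccl11* was at 184 CPM (mean of 3 mice) in a cluster of 44 cells, from 12 UMIs. *Ccl27a* was at 61.0 CPM in a cluster of 167 cells, from 29 UMIs. *Cxcl5* was at 49.6 CPM in 31 platelet-like cells, from 5 UMIs. These clusters had median depths of 783, 766 and 711 UMIs. No group of samples was large enough for a search for outlying samples.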

How the results depend on the processing

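Counts of calls in both directions together, per class, over immune types and over the other type pairs stayed within 1.5 times their value under all 94 recomputations. Single calls numbered 208, of which 85 were lost in at least 1 alternative: 28, 40 and 34 without replicate 2, 3 and 4, 27 with DESeq2 and 12 without marked doublets. With the mouse as a replicate block 2 were lost, *Cxcl3* in epithelial and *Ccr9* in stromal cells. DESeq2 called 5 members higher in NK cells (8 in edgeR), 5 in T cells (11) and 9 in DCs (18), and 14 lower in B cells (1), 8 in T cells (2) and 4 in NK cells (2). AT2 against AT1 went from 4 members higher to 1 without TMM and without replicate 4, and to 7 with no filter on low counts. Without that filter 4 were higher in non-classical monocytes and 4 in myofibroblasts (2 each), and 4 lower in Car4-type capillary ECs (2). Alveolar macrophages went from 14 higher to 8 without replicate 2, and epithelial cells from 15 lower to 8 without replicate 3. Other counts in 1 direction that moved by more than 1.5 times were of 5 or fewer calls.

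These log2 fold changes reversed, and the cause was not tested beyond the single cells named in the report. *Cxcl10* in endothelial cells was -3.84 without marked doublets and -0.90 to 6.34 without 1 mouse. Without 1 mouse, *Ccl4* was -0.072 to 3.23 in DCs and 0 to 9.37 in Col14a1-type against Col13a1-type fibroblasts. In alveolar macrophages *Cxcl3* was -1.76 to 8.80, *Cxcl1* -1.27 to 7.54 and *Cxcl10* -2.10 to 8.42. In myofibroblasts against Col13a1-type fibroblasts, *Ackr2* was 0 without marked doublets and -4.90 to 0 without 1 mouse, and *Cxcl15* was 1.32 without marked doublets.

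The highest type stayed the same for 35 to 44 of the 45 members. With the stricter filter (500 genes, 10% mitochondrial UMIs), *Ccl6* moved to basophils or mast cells and *Ccr2* to ILC2s. The alveolar macrophages of the main filter had a median of 14.1% mitochondrial UMIs, over this limit. *Ccl17*, *Ccl22*, *Ccl24*, *Cxcl16*, *Cxcl3*, *Cxcl10*, *Cx3cr1* and *Ccr7* moved to a cluster then named interstitial macrophage. With log-normalization, *Cxcl16*, *Ccl25* and *Cx3cr1* were also highest in interstitial macrophages. Depth limits members with few UMIs and types with few cells.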

Other observations

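In an unnamed cluster of 145 cells, *Cxcl15* was at 1349 ± 184 CPM (SD, n = 3) and *Ccl21a* at 212 CPM from 355 UMIs. The caller marked 30 of these cells as doublets. Both are values only, since the cluster could not be named.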
